A study of Mus musculus with 12 samples.

Results

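The genes described here are 3 ligands of the bone morphogenetic protein (BMP) pathway, Bmp2, Bmp4 and Bmp7, and 7 genes widely used as readouts of BMP signalling, Id1, Id2, Id3, Id4, Smad6, Msx1 and Msx2. Every array probe whose transcript accession belongs to one of these 10 genes was taken. That gave 14 of the 41174 probes on the design used for vitamin C, of which 13 were bright enough to be tested, and 11 of the 55681 probes on the design used for retinoic acid, of which 10 were. All 10 genes had at least 1 probe on each design, among 18749 named genes on the former and 20660 on the latter. The genes and the lists set beside them were chosen with earlier results of these data known. Their counts and medians beside all probes or genes are therefore descriptions and not tests.

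The samples were J1, a line of pluripotent mouse embryonic stem cells, and the series asked which of their genes vitamin C and retinoic acid regulate. All 4 groups were grown on gelatin in knockout serum replacement medium with 1000 U/mL leukaemia inhibitory factor (LIF), the cytokine that keeps mouse stem cells undifferentiated. For 24 h this medium also held vitamin C (VC, labelled as 50 µg), its water control (ddH2O, 1 µL), retinoic acid (RA, 1 µM) or its solvent control (DMSO, 1 µL), with 3 samples in each group. Nothing in the labels tells separate cultures from repeats of one culture within a group, so the spread that the p-values measure may be technical. Total RNA was labelled with Cy3 and hybridised to Agilent one-colour arrays, and the designs were scaled and fitted apart.

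BMPs are secreted ligands of the TGF-beta superfamily that bring together type I and type II receptor kinases, which phosphorylate Smad1, Smad5 and Smad9; these enter the nucleus with Smad4. Id genes, which encode proteins that bind E proteins and keep them from DNA, are the best known direct targets, Msx1 and Msx2 encode homeobox factors of BMP-rich embryonic regions, and Smad6 encodes an inhibitor that feeds back on the pathway. In mouse stem cells kept with LIF, BMP4 and Id proteins are known for holding back neural differentiation.

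The promoters of Id2, Id3, Id4 and Bmp4 are shown because after RA Id2 and Id3 rose, Id4 was not called and Bmp4 fell. Each is the run of 250 bases before the gene's start in RefSeq on GRCm38.p6, written 5′ to 3′ on the gene's strand: chr12:25096093-25096342 on the minus strand for Id2, chr4:136143572-136143821 on the plus strand for Id3, chr13:48260866-48261115 on the plus strand for Id4 and chr14:46390670-46390919 on the minus strand for Bmp4. Capitals mark matches to GGCGCC, a core bound by BMP-activated Smads, and to CAGAC or its reverse complement GTCTG, a Smad4 element.
Id2: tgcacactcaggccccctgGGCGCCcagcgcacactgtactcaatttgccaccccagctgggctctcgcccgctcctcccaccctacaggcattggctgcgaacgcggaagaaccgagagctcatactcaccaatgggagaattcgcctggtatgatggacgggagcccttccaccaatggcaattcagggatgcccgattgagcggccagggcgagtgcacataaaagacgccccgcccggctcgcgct
Id3: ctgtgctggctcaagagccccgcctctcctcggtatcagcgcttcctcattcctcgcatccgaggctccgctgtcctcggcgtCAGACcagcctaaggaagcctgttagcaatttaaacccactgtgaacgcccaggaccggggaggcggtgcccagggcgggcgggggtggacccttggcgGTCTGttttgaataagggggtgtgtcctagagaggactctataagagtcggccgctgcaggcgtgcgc
Id4: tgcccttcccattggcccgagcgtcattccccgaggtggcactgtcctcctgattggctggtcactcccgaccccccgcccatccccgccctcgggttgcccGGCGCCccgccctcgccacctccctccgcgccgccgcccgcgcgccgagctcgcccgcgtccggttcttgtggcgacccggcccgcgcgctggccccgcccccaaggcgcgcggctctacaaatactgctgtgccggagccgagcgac
Bmp4: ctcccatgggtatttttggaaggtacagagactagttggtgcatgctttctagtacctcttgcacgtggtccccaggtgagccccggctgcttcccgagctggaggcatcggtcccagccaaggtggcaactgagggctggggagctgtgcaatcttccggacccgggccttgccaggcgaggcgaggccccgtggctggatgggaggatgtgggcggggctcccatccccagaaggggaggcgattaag
GGCGCC, which is its own reverse complement, was found in Id2 (bases 231 to 226 before the start) and in Id4 (bases 148 to 143). CAGAC was found in Id3 at bases 167 to 163 and its reverse complement at bases 68 to 64. Neither was found in Bmp4, nor in the Smad6, Msx1 and Msx2 windows, which are not shown. AGGTCA, a core bound by retinoic acid receptors and other nuclear receptors, and its reverse complement TGACCT were in none of these 7 windows. The 3 motifs do not overlap where found. Of 32851 promoter windows of this length, 9.59% held GGCGCC, 42.2% held CAGAC or GTCTG and 14.0% held AGGTCA or TGACCT. A match is a description of letters and not a measured site. Bmp2, Bmp7 and Id1 are named only.

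Levels are given as scaled intensity, on which 100 is the 75th percentile signal of that array, and differences as log2. A level of one probe is not comparable with that of another. A probe was called when the Benjamini-Hochberg adjusted p of limma's moderated test over all tested probes of the design was under 0.05. The share of probes well above background ran from 66.9% to 70.3% for ddH2O and VC and from 60.8% to 65.6% for DMSO and RA, and no spot was saturated. Before scaling, the 75th percentile signal was 608 to 612 on the DMSO arrays and 288 to 388 on the RA arrays. The same unscaled signal near background therefore gives a higher scaled intensity in RA than in DMSO. The DMSO arrays shared a slide, as did the RA arrays, so slide and treatment cannot be told apart there. As a check of the labels, the RA-induced genes Cyp26a1 and Rarb were 323-fold and 19.4-fold higher in RA. In VC both were not called (log2 -0.27 and -0.17).

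In RA, 8 of the 10 tested probes rose against DMSO, 1 fell and 1 was not called. A difference of 2-fold or more was found for 9 of these 10 and for 12052 of all 37046 probes tested. The background was high: of 37046 probes tested, 71.6% were called, 36% higher and 35.5% lower. The median log2 difference was 2.93 over the member probes and 0.03 over all tested probes, and the median size was 2.93 against 0.67. Groups did not overlap for 9 of the 10 member probes and for 77.1% of all probes. Scaling by the array median moved the median of all probes by -0.34 and scaling by spike-ins by -0.39, and rises made up 50.3% of calls by the 75th percentile, 46.9% by quantile normalization, 34.0% by the median and 30.7% by spike-ins. All 9 member calls kept their direction and stayed called under every alternative run (17 for Bmp2 and 18 for each other probe), leaving out each sample in turn included. In bulk RNA, fewer cells of a type and less RNA per cell cannot be told apart.

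**Figure D1:**
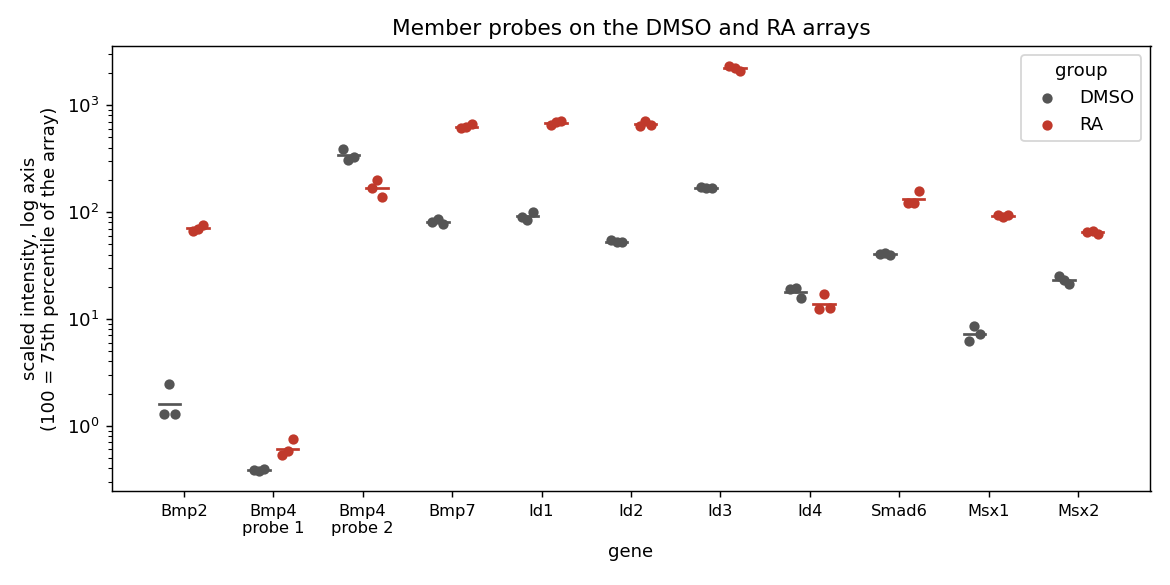
Scaled intensity of every member probe on the 3 DMSO arrays (grey) and 3 RA arrays (red), on a log axis where 100 is the array's 75th percentile; points are arrays and short lines group means on the log scale. The red points lie above the grey ones for Bmp2, Bmp7, Id1, Id2, Id3, Smad6, Msx1 and Msx2, below them for the measured Bmp4 probe (probe 2), and overlap them for Id4; Bmp4 probe 1 was well above background on none of the arrays.

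In RA Bmp2 and Bmp7 rose and Bmp4 fell. Bmp2 was at a scaled intensity of 1.28, 2.44 and 1.29 in DMSO replicates 1 to 3 and at 65.7, 69.3 and 76.1 in RA replicates 1 to 3. Its signal was near background in DMSO, where 1 of 3 arrays was well above background, and clearly measured on each RA array. The log2 difference was 5.46 (SE 0.27, n = 3 and 3, limma adjusted p = 1.36e-05), 44.2-fold, and 0.583% of tested probes had a larger rise. With normexp background correction the log2 difference was 2.85.

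Bmp7, a ligand that acts in kidney, eye and skeletal development, stood at 81.1, 85.6 and 77.7 in DMSO and at 609, 619 and 662 in RA. Its groups were far apart and each was tight. The rise was 7.73-fold (log2 2.95, SE 0.08, limma adjusted p = 1.42e-06).

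Bmp4, the ligand best known in stem cell culture, was lower in RA. Its measured probe read 389, 309 and 329 in DMSO and 168, 199.6 and 137 in RA, so every RA array was below every DMSO array. The fall was 2.05-fold (log2 -1.03, SE 0.16, limma adjusted p = 0.00176), and 14.1% of tested probes fell by more. A further Bmp4 probe read 0.379 to 0.390 in DMSO and 0.528 to 0.749 in RA, was well above background on none of the arrays and was not tested.

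Among the targets, Id1, Id2 and Id3 rose in RA and Id4 was not called. Id1 read 89.2, 85.0 and 100.6 in DMSO and 645, 697 and 714 in RA. The groups were well separated, with a rise of 7.50-fold (log2 2.91, SE 0.09, limma adjusted p = 2.87e-06). Id2 read 54.6, 51.9 and 52.3 in DMSO and 631, 708 and 647 in RA. Its rise was 12.5-fold (log2 3.64, SE 0.08, limma adjusted p = 7.84e-07). Id3 read 172, 167 and 168 in DMSO and 2312, 2236 and 2066 in RA. That was 13.0-fold (log2 3.71, SE 0.07, limma adjusted p = 7.0e-07), and 2.23% of tested probes rose by more. The Id2 window printed above holds GGCGCC, letters found in 9.59% of all windows. The Id3 window holds CAGAC and GTCTG, either of which was in 42.2% of all windows. No binding was measured.

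Id4, the family member best known in neural progenitors, read 18.9, 19.5 and 15.8 in DMSO and 12.3, 17.1 and 12.6 in RA. RA replicate 2 lay within the DMSO range, so the groups overlapped. The log2 difference was -0.38 (SE 0.16, limma adjusted p = 0.0719) and was not called. It was called lower in 6 of 18 alternatives: quantile normalization, scaling by the median (log2 -0.72), scaling by spike-ins (log2 -0.77), the authors' series values, the replicate block and the fit without RA replicate 2. It was 0.098 with normexp correction. Its promoter window holds the same GGCGCC letters as that of Id2.

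Both Msx genes rose. Msx1 read 6.23, 8.52 and 7.25 in DMSO and 94.1, 90.4 and 93.0 in RA. The RA arrays were close to each other and far above DMSO, a rise of 12.7-fold (log2 3.67, SE 0.12, limma adjusted p = 3.42e-06). Msx2 read 24.9, 23.3 and 21.4 in DMSO and 65.6, 67.0 and 62.9 in RA. The rise was smaller, at 2.81-fold (log2 1.49, SE 0.08, limma adjusted p = 2.38e-05), though the groups were as clearly apart. Smad6, the inhibitor, read 40.3, 40.9 and 39.3 in DMSO and 122, 120.2 and 156 in RA. RA replicate 3 was the highest of its group, and all 3 stood above DMSO, for a rise of 3.28-fold (log2 1.71, SE 0.12, limma adjusted p = 5.48e-05).

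**Figure D2:**
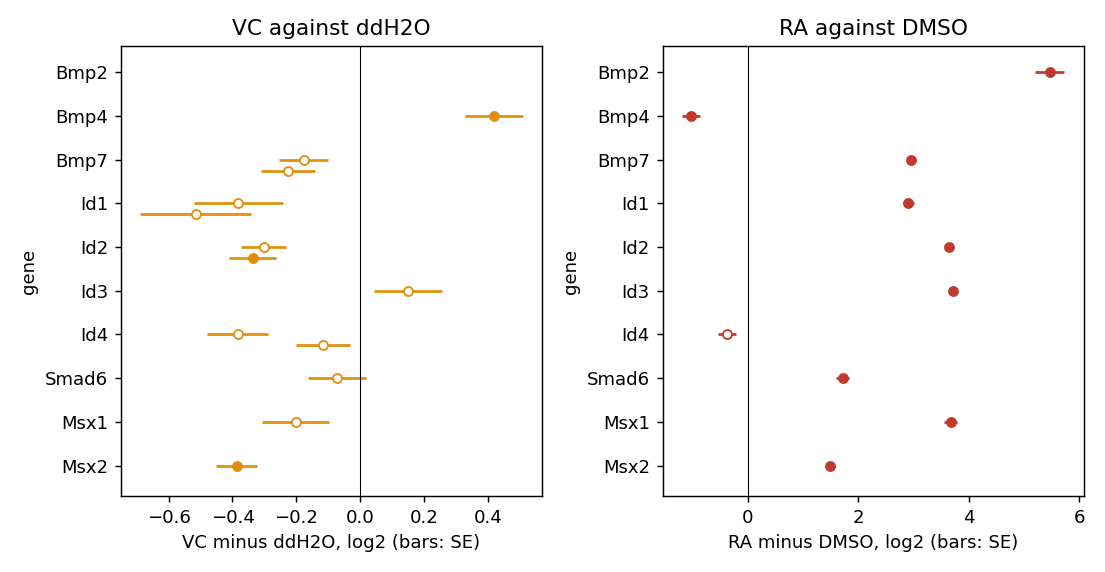
Log2 difference of each tested member probe with its standard error (bars), VC minus ddH2O on the left and RA minus DMSO on the right, 3 arrays per group; filled points were called and a gene with 2 points has 2 probes. In RA the differences run from -1.03 for Bmp4 to 5.46 for Bmp2, while in VC, on a narrower axis, they run from -0.52 for Id1 to 0.42 for Bmp4.

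The rest of the BMP pathway was read from 71 genes in all, the members included, each by its brightest probe. In RA, 58 were tested, of which 41 were higher and 7 lower, with a median log2 difference of 0.79 against -0.07 over all genes. Of all 16015 genes tested in this way 75.6% were called, 34.8% higher and 40.8% lower. Without the members, 33 of 48 were higher, 6 lower and 9 not called, with a median of 0.68. The 41 higher and 7 lower became 38 and 10 by quantile normalization, 32 and 12 by the median and 23 and 11 by spike-ins. The pathway list was chosen with earlier results of these data known, and Msx3 was added after its values were seen. The contrast with all genes therefore describes the list and tests nothing.

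Of 9 ligands tested in RA, 5 rose and 2 fell. Beside Bmp2 and Bmp7, Bmp8b, a ligand of the germ cell lineage, rose 2.89-fold. Gdf3, a ligand made by pluripotent cells, fell 21.7-fold, with a log2 difference of -1.45 on its other probe. Bmp8a (log2 0.02) and Gdf5 (log2 -0.49, with 0.32 on its other probe) were not called. By spike-ins 3 ligands rose and 3 fell.

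Of 11 receptors and co-receptors, 9 rose and 1 fell, against 4 and 2 by spike-ins. Bmpr1b, a type I receptor, rose 6.37-fold, with 2 of 3 DMSO arrays above background. Acvr2a, a type II receptor, rose 2.58-fold. Rgmb, a co-receptor, was called 2.45-fold higher but lay near background in both groups, with 1 of 3 DMSO and 2 of 3 RA arrays well above it. Eng, a co-receptor of endothelium, was 1.32-fold lower, and the iron-regulating co-receptor Hjv (log2 -0.61) was not called.

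Of 7 Smads and ubiquitin ligases tested, 3 were higher (Smad6, Smad5 and Smad4) and 2 lower; by spike-ins these were 1 and 3. Smad7, the other inhibitory Smad, fell 4.02-fold while Smad6 rose, and Smurf1, a ligase that targets Smads for degradation, fell 1.65-fold. Smad5, which carries the BMP signal, rose 1.77-fold by its brightest probe (log2 -0.06 on another), and Smad4 1.34-fold (log2 -0.21 on another). Smad1 (log2 -0.75, with 0.32 on its other probe) and Smurf2 (log2 -0.19, with -0.22 to 0.20 on its other probes) were not called.

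The genes listed as BMP antagonists gave 11 rises and no fall among 12 tested, and 4 rises and no fall by spike-ins. Chrdl1, a chordin-like antagonist well above background on no DMSO array, was at least 9.48-fold higher, the RA mean being set against the lowest signal that counted as measured. Nbl1 rose 4.60-fold and Sostdc1 at least 2.87-fold. Fstl3 (log2 0.21) was not called.

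In the Id and Msx family, Msx3, a neural tube homeobox gene and the only one there that is not a member, rose 9.67-fold. Of 11 other target genes tested, Smad6 and Smad7 among them, 6 rose and 3 fell. Tbx2, a T-box repressor, rose 71.8-fold with 1 of 3 DMSO arrays above background. Gata3 and Gata2, factors of trophoblast and blood, rose 29.5-fold and 5.79-fold. Tfap2c, a factor of trophoblast and germ cells, fell 14.2-fold and Tbx3, a pluripotency-linked T-box gene, 4.63-fold. Dlx5 (log2 -0.02) and Hey1 (log2 -0.16) were not called. Of the E proteins that Id proteins bind, Tcf12 rose 2.06-fold, Tcf3 was called higher (log2 0.31) but took the opposite sign by the median and by spike-ins, and Tcf4 (log2 -0.07, with 0.81 on its other probe) was not called. The other Tcf12 probe gave 1.42 and the other Tcf3 probe -0.11.

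**Figure D3:**
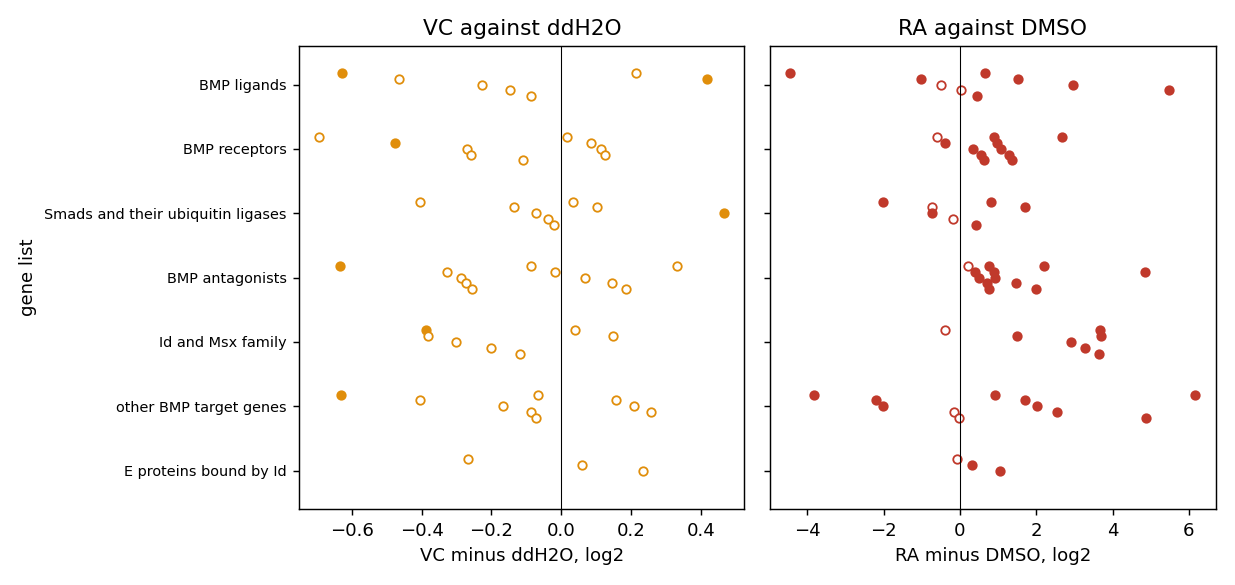
Log2 difference of each tested BMP pathway gene by its brightest probe, one row of points per gene list, VC minus ddH2O on the left and RA minus DMSO on the right; filled points were called at adjusted p under 0.05. In RA 41 of 58 genes were higher and 7 lower, whereas in VC 2 of 51 were higher and 5 lower, on a much narrower axis.

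Markers of cell states moved on the same RA arrays. Their sums, given next, add different probes, so the brightest gene can carry them and only the counts of genes weigh each alike. The summed scaled intensity of 8 stem cell markers, all detected on every array, was 22445 to 22964 in DMSO and 1253 to 1285 in RA. Of these markers 7 were lower and 1, Nanog, was 2.50-fold higher (log2 1.32). For primitive endoderm markers it was 1138 to 1254 in DMSO and 3184 to 3759 in RA, with 8 of 8 higher and most of the sum from Lama1. Trophectoderm markers, of which Elf5 and Hand1 were not detected, summed to 433 to 452 and 5243 to 6527, with 3 of 5 tested higher (Krt8, Krt18 and Tfap2a) and 1 lower. Krt18 carried that sum, at 302 in DMSO and 5350.0 in RA, while Eomes was 2.37-fold lower and Cdx2 (log2 0.86) was not called. Neural crest and neuroectoderm markers summed to 569 to 597 and 2096 to 2188, with 6 of 8 higher and 2 lower (Foxd3, and Zic1, whose other probe gave a log2 difference of 7.53). Fibroblast markers, of which Postn and Lum were not detected, summed to 206 to 222 and 3797 to 4080, with 5 of 6 tested higher and 1 lower. Col1a2 carried that sum, at 50.2 in DMSO and 3445 in RA, while Thy1 was 2.78-fold lower. The part of these markers in the changes of the BMP genes was not tested.

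In VC no tested member probe differed 2-fold from ddH2O, and few probes of any gene did. Of 13 probes tested, 1 was called higher (Bmp4) and 2 lower (Msx2 and 1 of 2 Id2 probes). A difference of 2-fold or more was found for 140 of all 28157 probes tested. Of all 28157 probes tested 8.29% were called, 2.97% higher and 5.32% lower. Rises made up 35.8% of the calls, and 56.4% with scaling by the median or 9.74% by spike-ins. The median log2 difference was -0.23 over the member probes and 0.01 over all, and the median size 0.30 against 0.15. Groups did not overlap for 1 higher and 8 lower of the 13 member probes. Of all 28157 probes, 5163 were higher and 5116 lower without overlap, 36.5% in either direction. Some genes had 2 probes, and by brightest probe 1 of 9 member genes was higher and 4 lower without overlap.

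These calls were close to the threshold. No member was called without ddH2O replicate 1, 2 or 3 or without VC replicate 1 or 3, and 2 were called without VC replicate 2 (Bmp4 and Msx2). None was called with the slide as a block, where limma called 0 of all probes and 6068 had an unadjusted p under 0.05. The slides held ddH2O replicate 1 alone, then ddH2O replicates 2 and 3 with VC replicates 1 and 2, then VC replicate 3 alone. Of 13 member probes, 12 had the same sign within the shared slide and between the other slides, as did 69.5% of all probes. This count tests nothing: the 13 probes cover 9 genes, and their median size was above that of all probes (0.30 against 0.15). Between the other slides, slide and treatment cannot be told apart.

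**Figure D4:**
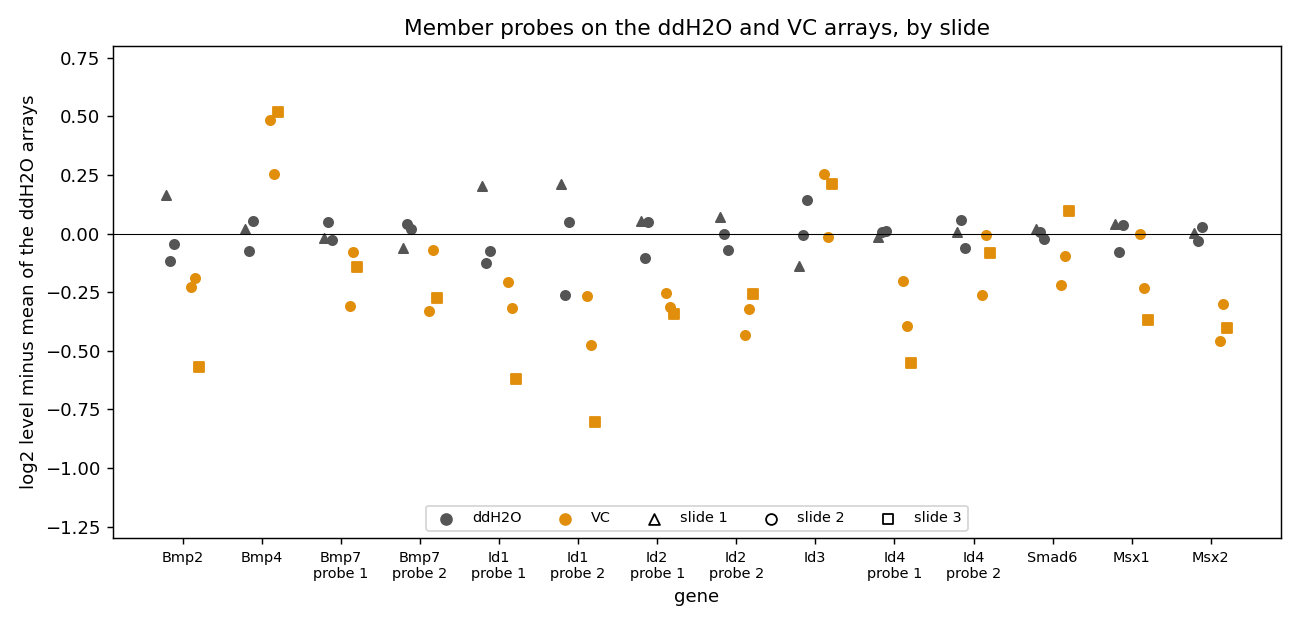
Log2 level of every member probe on the 3 ddH2O (grey) and 3 VC (orange) arrays, minus that probe's ddH2O mean; marker shape gives the slide. Bmp4 lies above the ddH2O arrays on all 3 VC arrays, with differences of 0.38 within the shared slide and 0.50 between the others, Msx2 and both Id2 probes lie below, and the Id1 probes are lowest on VC replicate 3; Bmp2 was well above background on none of the arrays.

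Of the ligands, Bmp4 was higher in VC. It read 40.7, 38.1 and 41.6 in ddH2O and 56.0, 47.8 and 57.5 in VC, each array the mean of 10 spots. Every VC array lay above every ddH2O array, VC replicate 2 being the nearest. The difference was 1.34-fold (log2 0.42, SE 0.09, limma adjusted p = 0.0434), and 3.32% of tested probes had a larger rise. Bmp4 kept its direction in all alternatives but was called in only 9 of 21, and in 1 of 6 fits that left out a sample. Bmp7 was read by a pair of probes: one gave 123 to 129 in ddH2O and 101 to 119 in VC, the other 142, 153 and 150.1 in ddH2O and 118, 141 and 122 in VC. Both were lower without overlap, and neither was called (log2 -0.18 and -0.23, limma adjusted p = 0.193 and 0.144). Bmp2 read 0.931 to 1.13 in ddH2O and 0.682 to 0.885 in VC, was well above background on none of the arrays and was not tested.

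Among the targets, Id2 read lower in VC on both of its probes, one of them called. On the called probe it read 34.3, 32.6 and 31.1 in ddH2O and 24.2, 26.1 and 27.3 in VC, with no overlap. It was 1.26-fold lower (log2 -0.34, SE 0.07, limma adjusted p = 0.0446), with the same -0.34 within the shared slide, and it was called in 4 of 20 alternatives. Normexp correction on the median signal turned it to 0.16, not called. The other Id2 probe read 59.7, 53.5 and 59.5 in ddH2O and 48.3, 46.3 and 45.3 in VC, again without overlap, and just missed the threshold (log2 -0.30, SE 0.07, limma adjusted p = 0.0511).

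An Id1 probe had the largest log2 difference of the member probes in VC, and neither Id1 probe was called. Its probes read 41.6, 33.1 and 34.4, and 38.9, 28.1 and 34.8, in ddH2O replicates 1 to 3. In VC they read 31.4, 29.0 and 23.5, and 27.9, 24.2 and 19.3. ddH2O replicate 1 was the highest array and VC replicate 3 the lowest on both probes, and these are the arrays that stood alone on their slides. The log2 differences were -0.38 (SE 0.14, limma adjusted p = 0.133) and -0.52 (SE 0.17, limma adjusted p = 0.116). Within the shared slide they were -0.16 and -0.27, and between the other slides -0.82 and -1.01.

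Id4 was lower without overlap on one probe, at 10.2, 10.4 and 10.4 in ddH2O and 8.99, 7.87 and 7.06 in VC (log2 -0.38, SE 0.10, limma adjusted p = 0.0616, not called). Its other probe overlapped between groups, at 22.1 to 24.1 in ddH2O and 19.3 to 23.0 in VC (log2 -0.12, limma adjusted p = 0.404). Id3 was higher on average in VC and not called: it read 64.0, 70.1 and 77.8 in ddH2O and 83.9, 69.7 and 81.4 in VC, with overlap (log2 0.15, SE 0.11, limma adjusted p = 0.396). The 4 Id genes thus had differences of both signs in VC, and no test set one against another.

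Msx2 gave the smallest adjusted p of the members in VC. It read 14.0, 13.7 and 14.3 in ddH2O and 10.2, 11.4 and 10.6 in VC, over 9 or 10 spots an array. The groups were clearly apart and it was 1.31-fold lower (log2 -0.39, SE 0.07, limma adjusted p = 0.0267), with -0.38 within the shared slide and -0.41 between the others. It was called in 9 of 21 alternatives, and normexp correction on the median signal turned it to 0.55, not called. Msx1 overlapped, at 12.7, 11.7 and 12.7 in ddH2O and 12.3, 10.5 and 9.55 in VC (log2 -0.20, limma adjusted p = 0.256). Smad6 also overlapped, at 83.1 to 85.4 in ddH2O and 72.4 to 90.3 in VC (log2 -0.07, limma adjusted p = 0.629).

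Of the 71 pathway genes, 51 were tested in VC, where 2 were higher and 5 lower, with a median log2 difference of -0.09 against -0.00 over all 14530 genes, of which 10.3% were called, 3.18% higher and 7.14% lower. Without the members, 1 of 42 was higher and 4 lower. These were Smurf1, 1.38-fold higher on its brightest probe (log2 0.14 on the other), and Bmp8b, Rgma, Chrdl2 and Hey1, which were 1.55-, 1.39-, 1.55- and 1.55-fold lower. Hey1 encodes a transcriptional repressor induced by Notch and BMP, and Rgma a BMP co-receptor. No E protein was called. By spike-ins no pathway gene was called.

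Stem cell markers summed to 11297 to 11938 in ddH2O and 13427 to 14198 in VC (7 of 7 matched genes detected on every array, 3 of them higher). Fibroblast markers summed to 375 to 407 and 290 to 304, with 1 of 6 tested lower (Thy1, 1.53-fold) and Lum not detected in either group. Trophectoderm markers summed to 1068 to 1112 and 760 to 858, with 2 of 5 tested lower (Krt8 and Krt18). Primitive endoderm markers summed to 115 to 118 and, on each VC array, 106, with none of 7 tested called. Neural crest and neuroectoderm markers summed to 195 to 204 and 180.1 to 189, with 1 of 7 tested called, Foxd3, which was higher in VC (log2 0.59, limma adjusted p = 0.0339). Their part in the differences of the BMP genes was not tested.

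The same 5 probes lay on both designs, and the comparisons share no control samples. On them the VC and RA differences were -0.23 and 2.95 for Bmp7, -0.34 and 3.64 for Id2, 0.15 and 3.71 for Id3, -0.12 and -0.38 for Id4, and -0.20 and 3.67 for Msx1. For Bmp4, read by different probes, they were 0.42 and -1.03. The difference between the treatments' effects was not tested, because the arrays were of separate designs.

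Among 13727 genes tested in both comparisons, those with the pair of log2 differences nearest to that of Id1 (-0.38 in VC and 2.91 in RA) were Mpped2 (-0.41 and 2.86), Slit2 (-0.33 and 2.88) and Gpc3 (-0.43 and 2.95). Their Euclidean distances from Id1 were 0.05, 0.06 and 0.07 log2 units, over 2 comparisons of 3 against 3 samples. These distances are below the SEs of the Id1 differences (0.14 in VC and 0.09 in RA), so the data do not resolve which genes are nearest. The Id1 difference in VC was not called, and the other Id1 probe gave -0.52 there.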

How the data were processed

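Per the file headers, Feature Extraction 10.7.3.1 (10.7 in the submitters' processing notes) made the deposited spot intensity values, subtracting background and a spatial trend. The authors' series values, in log2, served as an alternative only, and how they were made was not given in the sources used. Each array's log2 processed intensity was reduced by its 75th percentile over non-control spots. Outlier-flagged spots were left out and spots of a probe averaged. A probe was tested if well above background on at least 3 of 6 arrays, on an array where at least 50% of its spots were. The fits used lmFit and eBayes of limma 3.58.1 (R 4.3.3), each design apart. They were also run on simulated data with 200 changed probes, independent noise and no slide effect. With the noise of the VC comparison, 56.9% of 1.5-fold and 82.7% of 2-fold changes were called. With that of RA, 25% and 47.3% were. The real data differ from this setting in their slides and, in RA, in the share of probes called. Accessions were named through RefSeq for GRCm38.p6, which matched 27479 of 41174 and 27235 of 55681 probes; pathway genes were read by their brightest probe.

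The members and gene lists were chosen with earlier results of these data known. The text names every member probe, in each pathway list up to 3 called rises and 3 called falls of largest change and the uncalled genes of small counts, Cyp26a1, Rarb, and the 3 genes nearest to Id1. Msx3 was added after its values were seen. One marker list is not reported here. Alternatives were other scalings, background corrections, filters, variance models, blocks and each sample left out; normexp ran on the median signal with an offset of 50. The number of arrays limits the precision.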

Additional observations from a re-analysis of the deposited data

How the results depend on the processing

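In RA the member, pathway and all-probe counts stayed within 1.5 times of 9, 48 and 26523, except that 1 probe per gene left 12487 calls among 16015 tested; leaving out 1 sample gave 22678 to 26391. In VC they did not. From 2333, 3 and 7 (all probes, members, pathway), scaling by spike-ins gave 195, 0 and 0, normexp on the median signal 0 (277 at an unadjusted p under 0.05), 0 and 0, no filter 0 (7634), 0 and 0, an adjusted p under 0.01 gave 16, 0 and 0, and the slide block 0 (6068), 0 and 0. Trend and robust variances gave 4269, 4 and 15, the filter on all 6 arrays 2936, 5 and 11, and 1 probe per gene 2491, 3 and 14. Leaving out 1 sample gave 0 to 1180, 0 to 2 and 0 to 7. Both added after seeing the data, normexp without spots of high local background gave 543, 0 and 1, and the slide as a random block 2609, 4 and 10. Quantile, median and series values gave 2 members each. Normexp on the median signal, whose fitted background mean reached -857.4 on 1 array, turned the sign of 9 VC differences, among them those of Msx2 and an Id2 probe that are called lower otherwise, and called none of them: Id1 0.0967 and 0.148, Id2 0.0844 and 0.16 (the latter on the called probe), Id4 0.574 and 0.523, Smad6 0.0919, Msx1 0.525 and Msx2 0.553; in RA it gave 0.098 for Id4. Leaving out 1 sample, Smad6 in VC ran from -0.16 to 0.000241, the latter without VC replicate 1. The causes were not tested. Signals near background, as of Bmp2 in DMSO, limit what can be read.

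Same-numbered samples showed little shared deviation (correlations of -0.07, 0.05 and -0.02 for VC and -0.03, 0.02 and -0.04 for RA). With so few arrays in each group, these correlations cannot decide whether the numbers pair samples. The replicate block gave 0 of all probes (7644 at an unadjusted p under 0.05), 0 members and 0 pathway genes in VC, and 25050, 10 and 47 in RA.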
